A study of Mus musculus with 22 samples.

Results

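The 9 genes described here encode membrane carriers for glucose (Slc2a1, Slc2a3 and Slc2a4), for amino acids (Slc7a5, its partner Slc3a2, Slc1a5, Slc38a2 and Slc7a1) and for lactate and pyruvate (Slc16a1). They were taken as all probe sets on chips A, B and C of the Affymetrix MG-U74v2 mouse array set whose only gene symbol is one of these names. That rule found 23 of 36701 probe sets, with 14 on A, 3 on B and 6 on C, and the genes are 9 of the 15965 with a probe set of their own. A probe set is a group of short oligonucleotides that reads 1 transcript. Of the 23, 16 probe sets for 8 genes reached the signal minimum for testing, a scaled signal of 150 on at least 2 arrays of the chip type, and Slc16a1 did not.

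Total RNA from mouse mammary tissue was read in 3 groups. PEA3-null tumours (2 RNA samples) and PEA3 wild-type tumours (3 RNA samples) were mammary tumours that arose under a Her2/Neu transgene (the ErbB2 receptor) in mice lacking or carrying PEA3, an ETS family transcription factor encoded by Etv4. Both tumour groups thus carried the transgene, and normal mammary glands of FVB mice (3 RNA samples) formed the third group, with no transgene or PEA3 change given for them. The promoter of the transgene, the PEA3 allele and the age of the mice are not given in the sources used here, and sorting for cells positive for the surface marker Sca-1 is stated for all 3 groups. The labels call the tumour RNA a pool and title each normal sample as one, so the p-values measure the spread between RNA preparations, which may be technical, and not between animals. Chip C carried 1 PEA3-null, 2 wild-type and 3 normal samples, so PEA3-null tumours were compared with the other groups on chips A and B only.

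Cells take up glucose mainly through the GLUT family of facilitative carriers. GLUT1 (Slc2a1) serves basal uptake in many dividing cells, GLUT3 (Slc2a3) is best known from neurons, and GLUT4 (Slc2a4) is stored in vesicles of muscle and fat cells and moved to the surface by insulin. Large neutral amino acids enter through LAT1 (Slc7a5), an exchanger that reaches the surface only when bound to the CD98 heavy chain (Slc3a2), and it can export glutamine that ASCT2 (Slc1a5) or SNAT2 (Slc38a2) brought in. In the body, mammary epithelium lies within fat.

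RefSeq promoter windows of build GRCm38.p6 were at hand for 5 of the 9 genes (Slc2a1, Slc3a2, Slc38a2, Slc7a1 and Slc16a1). Those of Slc2a1, the glucose carrier that was higher in both tumour groups, and of Slc3a2, the window among these that holds an ETS core, are shown because PEA3 is an ETS factor. Each is the 250 bases before the transcript start, written 5′ to 3′ on the gene's own strand, from chr4:119108495-119108744 (plus strand) for Slc2a1 and chr19:8713898-8714147 (minus strand) for Slc3a2. Capitals mark the motifs found.
Slc2a1: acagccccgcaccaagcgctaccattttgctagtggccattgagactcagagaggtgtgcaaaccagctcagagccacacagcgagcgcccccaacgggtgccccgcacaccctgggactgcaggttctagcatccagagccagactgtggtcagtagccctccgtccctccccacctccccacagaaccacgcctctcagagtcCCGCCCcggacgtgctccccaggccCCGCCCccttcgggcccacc
Slc3a2: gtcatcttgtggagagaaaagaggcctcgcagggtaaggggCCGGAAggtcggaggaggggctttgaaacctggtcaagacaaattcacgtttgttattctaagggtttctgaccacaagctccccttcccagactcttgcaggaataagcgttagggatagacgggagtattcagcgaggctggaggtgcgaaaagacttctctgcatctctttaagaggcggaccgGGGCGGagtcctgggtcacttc
The motifs were searched on both strands and none overlapped another here. The Slc2a1 window held the GC box GGGCGG at 2 positions and no ETS core. The Slc3a2 window held 1 ETS core, CCGGAA, 209 bases before the start and 1 GC box 22 bases before it. Of 32851 promoter windows of this length, 32.7% held the GC box, 12% the ETS core CCGGAA, 29.5% the PEA3 site AGGAAG and 6.02% the E-box CACGTG. The PEA3 site was in none of the windows of these 5 genes. These matches describe the letters in the windows and locate no bound site.

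The targeted gene was read first. One Etv4 probe set (92979_at) read 512.5 and 276 in the PEA3-null tumours, 420.4, 360.1 and 360.7 in the wild-type tumours and 116, 179 and 153 in the normal glands. The difference between the genotypes was -0.01 on the log2 scale (SE 0.34, limma adjusted p = 0.998), so this probe set read no lower under the PEA3-null label. The other tested one (161842_r_at) had means of 602 ± 186 (SD, n = 2), 750.2 ± 332 (SD, n = 3) and 799.9 ± 167 (SD, n = 3), with a genotype difference of -0.22 (SE 0.37, limma adjusted p = 0.875). The part of the gene that is deleted is not given in the sources used here, and the probe positions were not used, so these readings check the label only if the probes lie inside it. Genotypes below are those of the labels. A signal of 150 was reached by 6939 to 8430 probe sets on each array.

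Other cell types and RNA measures moved with tumour against gland. All 5 skeletal muscle markers and all 5 measured adipocyte markers fell in both tumour groups, and all 5 luminal epithelial markers rose. Summed signal of the muscle markers (Ckm, Acta1, Myh4, Tnnt3 and Mylpf) was 111189 to 116031 in normal glands, 362 to 877 in wild-type tumours, and 502 and 2655 in the PEA3-null tumours 1 and 2. For the adipocyte markers (Adipoq, Lpl, Fabp4, Retn and Lep) the sums were 49398 to 52808, 1464 to 2040, and 2099 and 2245. Luminal markers (Krt8, Krt18, Cldn3, Cldn7 and Epcam) summed to 4453 to 5917 in glands, 32951 to 38025 in wild-type tumours and 35689 to 39579 in PEA3-null tumours. None of these markers was listed at 0. The gland arrays thus read muscle and fat genes at high signal although a Sca-1 sort is stated for that group. The 3′ to 5′ ratio of the Gapdh control probe sets was 2.58 to 6.08 on gland arrays and 0.91 to 1.25 on tumour arrays. For the actin control probe sets it was 1.28 to 2.14 on gland arrays, which overlapped 1.15 to 1.66 on wild-type tumour arrays. On PEA3-null tumour arrays the actin ratio was 1.14 to 1.26. No scan day was shared by tumour and gland arrays, so tissue and scan day cannot be told apart.

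Against normal glands, the GLUT1 gene Slc2a1 rose and the GLUT4 gene Slc2a4 fell in both tumour groups, while Slc1a5, the ASCT2 glutamine carrier, fell by more than 10-fold on chip A. The LAT1 gene Slc7a5 rose in PEA3-null tumours. In wild-type tumours 5 of 16 tested probe sets passed the adjusted p threshold of 0.05, 1 higher and 4 lower, where 20.8% of all 28242 tested probe sets passed, 10.5% higher and 10.3% lower. In PEA3-null tumours 4 of 10 passed, 2 higher and 2 lower, where 24.6% of 19275 passed, 12.2% higher and 12.4% lower. The median log2 difference over the tested transporter probe sets was 0.10 in wild-type tumours and 0.50 in PEA3-null tumours, beside 0.05 and 0.08 over all tested probe sets. Groups did not overlap for 10 of 16 probe sets in wild-type tumours (41.9% of all) and for 8 of 10 in PEA3-null tumours (53.3% of all). Of the 5 calls in wild-type tumours, 3 were probe sets of Slc1a5, and these shares are not read as a property of the 9 genes as a set.

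**Figure D1:**
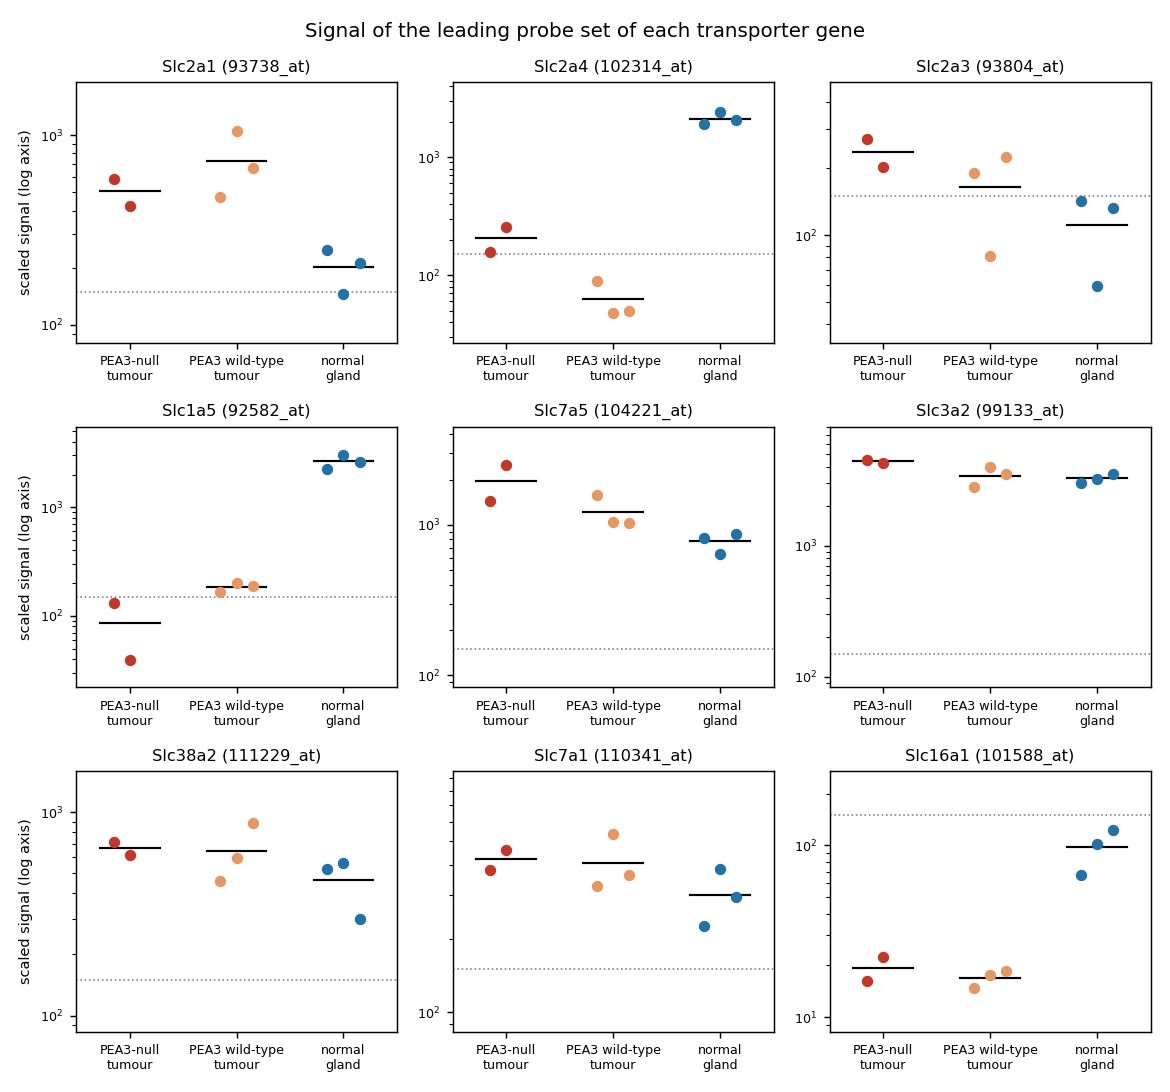
Scaled signal of 1 probe set for each of the 9 transporter genes, with each point an RNA sample, bars at group means, a logarithmic vertical axis and a dotted line at 150. All tumour points lie above the gland points for Slc2a1 and Slc7a5 and below them for Slc2a4, Slc1a5 and Slc16a1, the last of which stays under 150 on all arrays.

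Among the glucose carriers, Slc2a1 (probe set 93738_at, chip A) read 589.9 and 423 in the PEA3-null tumours, 470.0, 1052 and 671 in the wild-type tumours and 248, 145 and 212 in the normal glands. Every tumour sample lay above every gland, and the tumour groups overlapped, with wild-type tumour 2 the highest sample. Means were 507 ± 118 (SD, n = 2), 731 ± 296 (SD, n = 3) and 202 ± 52.1 (SD, n = 3). Wild-type tumours were higher by 1.66 (SE 0.31), a 3.16-fold difference on the scale of log2(signal + 32), which holds for all folds here and understates those of dim probe sets (limma adjusted p = 0.00245). PEA3-null tumours were higher by 1.21 (SE 0.35), 2.32-fold (limma adjusted p = 0.0249). The PEA3-null call was lost when normal gland 2 (limma adjusted p = 0.0863), normal gland 3 (0.0526) or PEA3-null tumour 1 (0.141) was left out, and both calls were lost without normal glands 1 and 2 together (0.195, and 0.0592 for wild-type tumours).

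Slc2a4 (102314_at, chip A) read 157 and 256 in the PEA3-null tumours, 89.7, 48.1 and 49.2 in the wild-type tumours and 1889, 2387 and 2043 in the normal glands. The 3 groups did not overlap, with glands highest and wild-type tumours lowest. Means were 206 ± 70.0 (SD, n = 2), 62.3 ± 23.7 (SD, n = 3) and 2106 ± 255 (SD, n = 3). It fell by 4.52 on the log2 scale in wild-type tumours (SE 0.28, 23.0-fold, limma adjusted p = 4.96e-07). In PEA3-null tumours it fell by 3.19 (SE 0.31, 9.14-fold, limma adjusted p = 2.07e-05). GLUT4 is a carrier of muscle and fat, and the summed muscle and adipocyte markers given above fell with it. PEA3-null tumour 2, the tumour sample with the highest Slc2a4 signal, also had the highest muscle marker sum among the tumours. The other tumours did not follow that order of muscle sums. Wild-type tumour 3 had the next muscle sum (877) with a Slc2a4 signal of 49.2, and PEA3-null tumour 1 had a sum of 502 with 157. Adipocyte sums were 2099 and 2245 in PEA3-null tumours 1 and 2, above 1464, 2040 and 1663 in wild-type tumours 1 to 3. Within the wild-type tumours, number 1 had the highest Slc2a4 signal (89.7) but the lowest adipocyte sum. The part of these cell types in the difference was not tested. Fewer cells of a type and less RNA per cell cannot be told apart in these bulk samples, for Slc2a4 or any gene below. Another probe set of the gene (162385_i_at) stayed between 15.3 and 106 on all arrays and was not tested.

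Slc2a3 gave no call, and its probe sets disagreed in sign. On chip A, 93804_at read 271 and 202 in PEA3-null tumours, 191, 80.5 and 224 in wild-type tumours and 142, 59.2 and 132 in glands. PEA3-null tumours lay above the glands there by 0.95 (95% interval -0.10 to 2.00, limma adjusted p = 0.177), and wild-type tumours, which overlapped the glands, by 0.43 (-0.51 to 1.37, limma adjusted p = 0.549). On chip C, 169614_at gave a wild-type minus gland difference of -1.04 (limma adjusted p = 0.288) and 170064_f_at, whose suffix marks probes shared by related transcripts, one of -0.52 (limma adjusted p = 0.536). Their lone PEA3-null values were 220.4 and 109.7, beside gland ranges of 207 to 433 and 367 to 523. The fourth probe set, 92292_at, stayed at 133 or below on all arrays and was not tested.

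Slc1a5 encodes ASCT2, a sodium-dependent exchanger of glutamine and other small neutral amino acids. Its chip A probe set (92582_at) read 132 and 39.6 in the PEA3-null tumours, 164, 203 and 189.7 in the wild-type tumours and 2272, 3057 and 2629 in the normal glands. All 5 tumour samples lay far below the glands, and both PEA3-null samples lay below the wild-type ones. Wild-type tumours were lower by 12.3-fold (log2 difference -3.62, SE 0.30, limma adjusted p = 5.31e-06). PEA3-null tumours were lower by 24.6-fold (-4.62, SE 0.33, limma adjusted p = 2.24e-06), a difference that became -5.22 without PEA3-null tumour 1 and -4.02 without PEA3-null tumour 2.

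Both chip C probe sets of Slc1a5 also fell in wild-type tumours. For 134726_f_at the signals were 531 and 422 in wild-type tumours, 4173, 4950.2 and 4844 in glands and 1026 in the lone PEA3-null sample. The wild-type difference was -3.21 (SE 0.26, 9.25-fold, limma adjusted p = 2.47e-05). For 168271_f_at they were 4693 and 5799, then 114084, 134988 and 129299, with 4978 in the PEA3-null sample, and the wild-type difference was -4.58 (SE 0.17, 24.0-fold, limma adjusted p = 1.74e-07). Both carry the suffix for probes shared by related transcripts, so their signal may not be that of Slc1a5 alone. The PEA3-null sample read above the wild-type ones on 134726_f_at and between them on 168271_f_at, while on chip A both PEA3-null samples read below. Muscle and adipocyte marker sums fell along with Slc1a5, as they did with Slc2a4, and so did other sums. Summed fibroblast markers were 31400 to 32801 in glands, 3317 to 4214 in wild-type tumours and 2987 to 4216 in PEA3-null tumours. Lymphocyte sums were 3829 to 4941, 577 to 628, and 768 to 1256. Among the tumours, PEA3-null tumour 2 had the highest muscle and adipocyte sums (2655 and 2245) but the lowest chip A Slc1a5 signal (39.6). The part of these cell types was not tested.

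**Figure D2:**
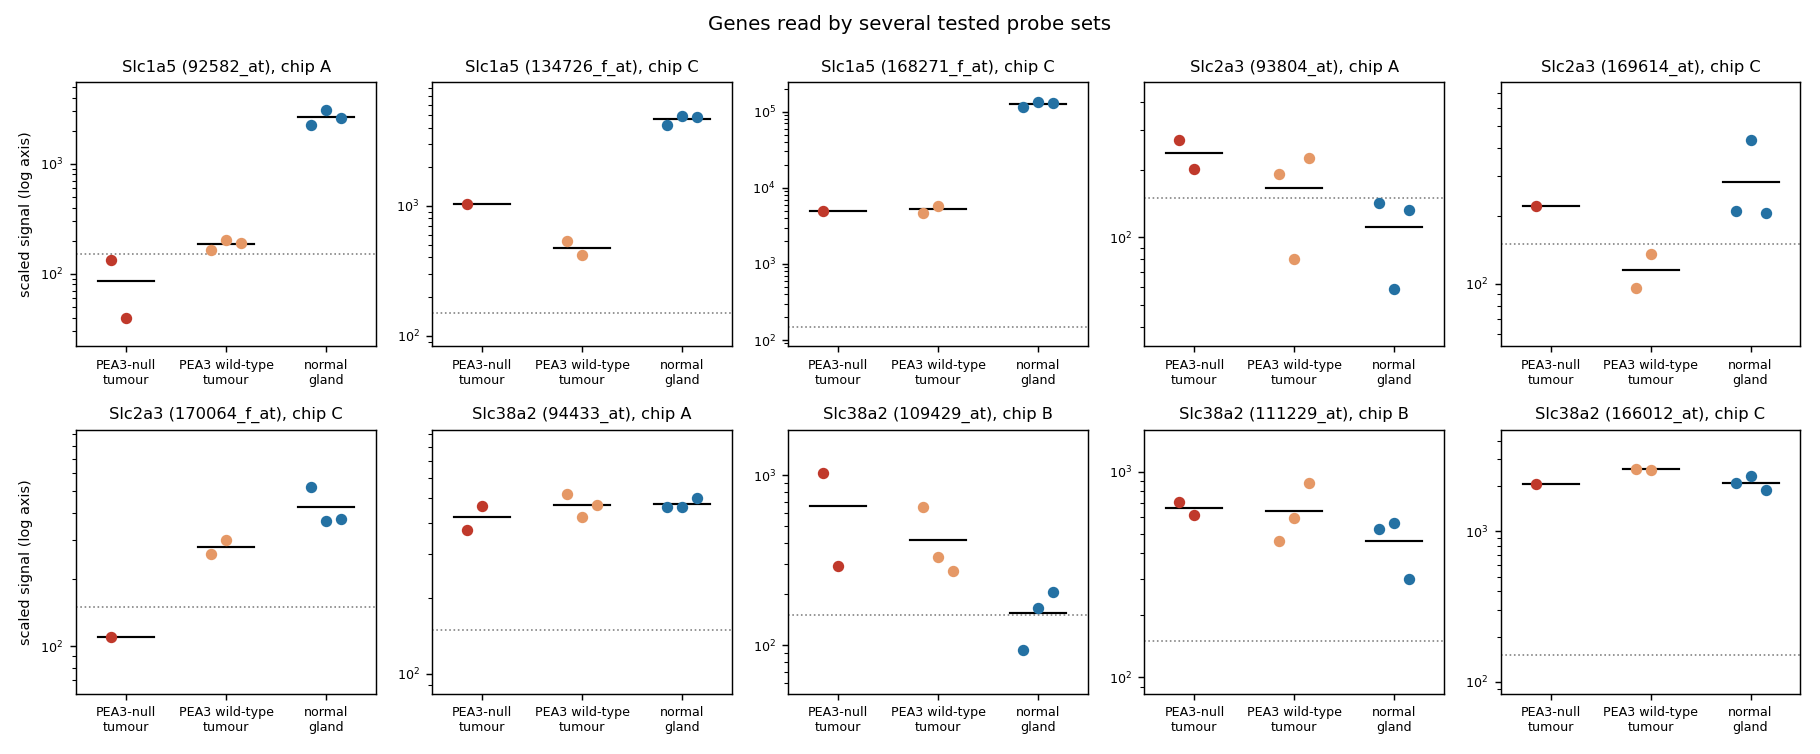
Scaled signal of each tested probe set of Slc1a5, Slc2a3 and Slc38a2, 3 of the genes with several tested probe sets. Slc3a2 also has several and is not shown. Each point is an RNA sample, with bars at group means, a logarithmic vertical axis and a dotted line at 150. The 3 Slc1a5 probe sets all read higher in the glands, whereas those of Slc2a3 and Slc38a2 differ in pattern, and chip C shows 1 PEA3-null and 2 wild-type samples.

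Neither subunit of the LAT1 complex fell. Slc7a5, the transport subunit (104221_at, chip A), read 1450.0 and 2489 in the PEA3-null tumours, 1583, 1048 and 1022 in the wild-type tumours and 818, 636 and 875 in the normal glands. Every tumour sample lay above every gland, and the tumour groups overlapped. Means were 1969.6 ± 735 (SD, n = 2), 1218 ± 317 (SD, n = 3) and 776 ± 125 (SD, n = 3). PEA3-null tumours were 2.41-fold higher than glands (log2 difference 1.27, SE 0.27, limma adjusted p = 0.0046). The wild-type difference of 0.61 (95% interval 0.09 to 1.13) did not pass (limma adjusted p = 0.0958). The PEA3-null call was lost without normal glands 1 and 2 together (limma adjusted p = 0.106), and the difference lay between 0.89 without PEA3-null tumour 2 and 1.65 without PEA3-null tumour 1.

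Slc3a2, the heavy chain that carries LAT1 to the surface (99133_at, chip A), read 4480 and 4303 in the PEA3-null tumours, 2781, 3987 and 3518 in the wild-type tumours and 3034, 3249.9 and 3494 in the glands. Wild-type tumours spanned the gland values, and both PEA3-null samples lay above all others. The difference from glands was 0.06 in wild-type tumours (95% interval -0.27 to 0.39, limma adjusted p = 0.837) and 0.43 in PEA3-null tumours (0.06 to 0.79, limma adjusted p = 0.0844). A dimmer probe set on chip C (129627_at) overlapped between wild-type tumours, at 557 and 169, and glands, at 123 to 451. Its lone PEA3-null value, 288, lay within both of these ranges. The subunits were therefore read with different results in PEA3-null tumours, where Slc7a5 passed and Slc3a2 did not, and the difference between the subunits was not tested.

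SNAT2 (Slc38a2), a sodium-coupled importer of small neutral amino acids whose gene is known to be induced when amino acids are scarce, had no probe set past the threshold. On chip B, 109429_at read 1024 and 293 in PEA3-null tumours, 649, 329 and 274 in wild-type tumours and 93.3, 165 and 206 in glands. All tumour samples lay above the glands, and the 2 PEA3-null samples stood far apart. The PEA3-null difference was 1.70 (SE 0.59, limma adjusted p = 0.0506). It was 2.55 and passed without PEA3-null tumour 2 (limma adjusted p = 0.0119) and 0.85 without PEA3-null tumour 1 (limma adjusted p = 0.387), where the lone sample was assumed to vary like the other groups, as in every fit without 1 of the PEA3-null samples. The wild-type difference was 1.23 (SE 0.52, limma adjusted p = 0.124). The other tested probe sets lay closer to the glands. On chip A, 94433_at differed by -0.02 in wild-type and -0.17 in PEA3-null tumours. For 111229_at on chip B the differences were 0.45 and 0.54. The wild-type difference of 166012_at on chip C was 0.29, with 2612 and 2537 in wild-type tumours, 2107, 2323 and 1885 in glands and 2051 in the PEA3-null sample. The remaining 3 Slc38a2 probe sets on chip A (161954_r_at, 162135_r_at and 162233_r_at) read between 1.0 and 281, reached 150 on at most 1 array and were not tested.

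CAT1 (Slc7a1), the carrier of arginine and lysine, overlapped in all comparisons. Its chip B probe set (110341_at) read 382 and 460.4 in PEA3-null tumours, 327, 534 and 362 in wild-type tumours and 226, 385 and 295 in glands. Differences from glands were 0.40 in wild-type tumours (95% interval -0.42 to 1.21, limma adjusted p = 0.533) and 0.46 in PEA3-null tumours (-0.45 to 1.38, limma adjusted p = 0.469). Its chip A probe set (101208_at) stayed between 9.8 and 57.4 and was not tested.

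The lactate and pyruvate carrier MCT1 (Slc16a1) has 1 probe set (101588_at, chip A). It read 16.2 and 22.5 in PEA3-null tumours, 14.8, 17.5 and 18.4 in wild-type tumours and 66.8, 102 and 123 in the normal glands. Glands were the higher group and did not overlap the tumours, but all values lay under 150, so no test was made.

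**Figure D3:**
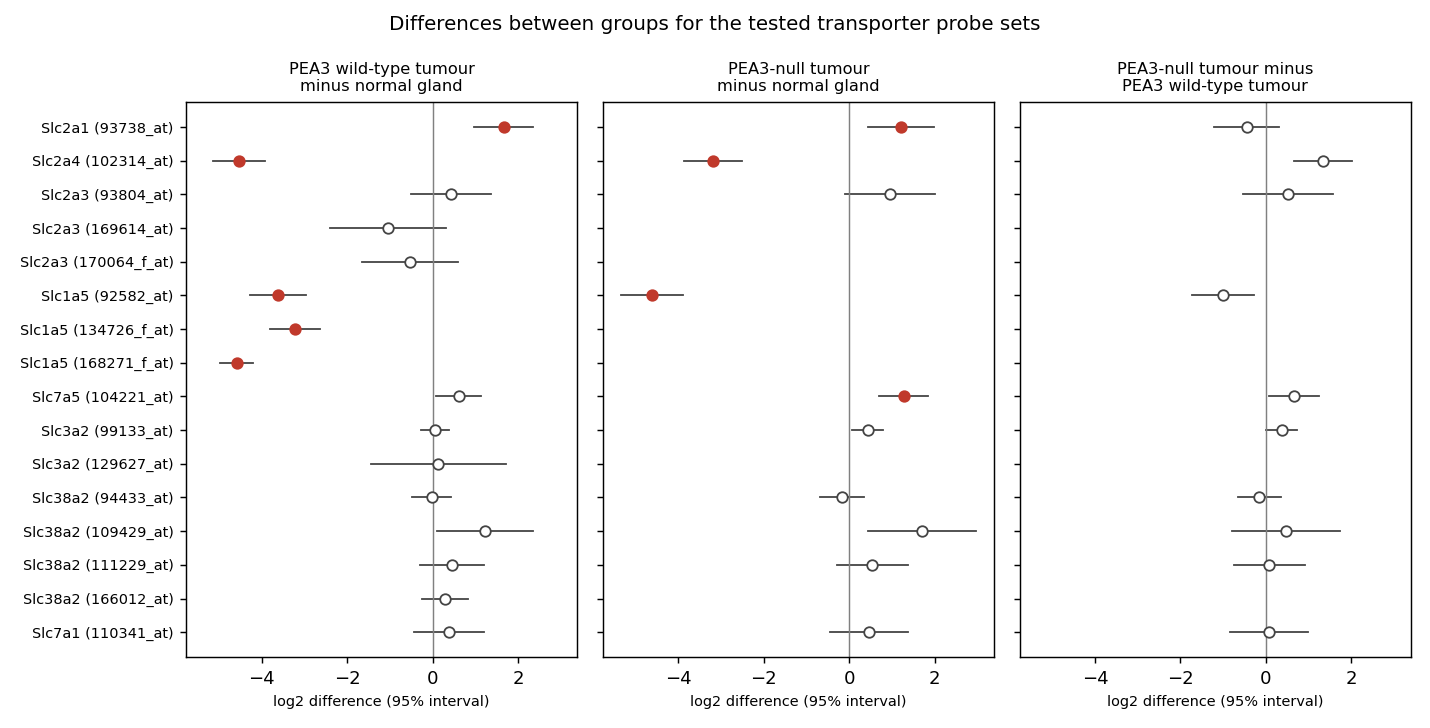
Log2 differences between groups with 95% intervals for the 16 tested transporter probe sets, with filled points where the limma adjusted p was under 0.05 and no point for chip C in comparisons with PEA3-null tumours. Filled points are Slc2a1, Slc2a4 and Slc1a5 against glands in both tumour groups and Slc7a5 in PEA3-null tumours, and none is filled between the genotypes.

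Between the genotypes no transporter passed. Of 10 tested probe sets, 0 reached an adjusted p of 0.05 with limma, beside 37 of 19275 (0.192%), and 4 had an unadjusted p under 0.05, beside 2031 of 19275. Without PEA3-null tumour 1 the count over all probe sets was 241 (1.28%), and without wild-type tumour 1 it was 3. Groups did not overlap for 3 of the 10, beside 22.8% of all probe sets, with Slc2a4 and Slc3a2 higher and Slc1a5 lower in PEA3-null tumours. The Slc2a4 difference was 1.33 (95% interval 0.66 to 2.01, limma adjusted p = 0.17). Its wild-type signals, 89.7, 48.1 and 49.2, all lay under 150. The difference was 1.03 without PEA3-null tumour 2, the sample with the highest muscle marker sum, an order the other tumours did not follow. Adipocyte marker sums were 2099 and 2245 in PEA3-null tumours, above the 1464 to 2040 of wild-type tumours, and their part was not tested. For Slc1a5 on chip A the difference was -1.0 (-1.73 to -0.27, limma adjusted p = 0.306). Both PEA3-null signals of this probe set, 132 and 39.6, lay under 150. Without PEA3-null tumour 1 the Slc1a5 difference became -1.60 and passed (limma adjusted p = 0.028), and without PEA3-null tumour 2 it was -0.40 (limma adjusted p = 0.621). Slc7a5 differed by 0.66 (0.07 to 1.24, limma adjusted p = 0.401) and Slc3a2 by 0.37 (0.004 to 0.73, limma adjusted p = 0.469). For Slc2a1 the interval was -1.21 to 0.32, and for Slc7a1 it was -0.85 to 0.98, so these data do not show the genotypes to be alike for either gene. The median over the 10 probe sets was 0.23, beside 0.01 over all tested probe sets. Normal glands varied less between samples than tumours on chip A (median log2 SD 0.21 against 0.32 in both tumour groups), and the fit gave all groups a common spread, so the standard errors between the genotypes are on average too small. All chip A tumour arrays were scanned on 1 day, whereas the chip B arrays of the genotypes differed in scan day and chip lot.

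Both comparisons with glands share the gland samples, so their values are given side by side below without a measure of likeness. Other genes of nutrient transport and use were read by the tested probe set with the highest mean signal, and of 96 measured genes of 8 lists in wild-type tumours 12 rose, 27 fell and 57 did not pass. In PEA3-null tumours 12 of 89 rose, 25 fell and 52 did not pass. Over all tested genes 1801 rose and 1918 fell of 13908 in wild-type tumours, and 1551 rose and 1762 fell of 11760 in PEA3-null tumours. None of 89 passed between the genotypes with limma.

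Of 9 other glucose and hexose transporters, 2 rose and 0 fell in wild-type tumours, with a median log2 difference of 0.13 beside 0.00 over all tested genes. These were the sodium-coupled glucose carriers Slc5a1 (1.50, limma adjusted p = 0.000774) and Slc5a2 (1.09, limma adjusted p = 0.00519). In PEA3-null tumours Slc5a1 rose by 1.32, and Slc5a2 differed by 0.71 without passing. Hexokinases, which trap glucose in the cell by phosphorylation, split: Hk1 rose by 2.00 in wild-type and 1.72 in PEA3-null tumours, and Hk2, the hexokinase typical of muscle and fat, fell by 4.47 and fell by 3.73. The other 3 of 5 measured hexokinase and lactate dehydrogenase genes did not pass in wild-type tumours.

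Of 13 genes of GLUT4 vesicle traffic and insulin signalling, each read by its brightest probe set, 7 passed as lower and 0 as higher in wild-type tumours (median -0.87), and 8 and 0 in PEA3-null tumours (median -0.84). These counts hold the insulin signalling gene Pik3r1, which had other probe sets past the threshold in the opposite direction, up to 2.24 in wild-type and 2.60 in PEA3-null tumours. Cav1 and Cavin1, the caveola coat genes abundant in fat and endothelial cells, had log2 differences of -4.59 and -3.83 in wild-type tumours and of -4.54 and -3.89 in PEA3-null tumours. Tbc1d4, the Rab regulator that holds GLUT4 vesicles inside the cell, had -1.43 and -0.89. Cav1 and Cavin1 each had a dimmer probe set that did not pass, with a sign opposite to the fall in wild-type tumours. No direction is given for Pik3r1. Adipocyte and muscle marker sums fell with this list, and summed endothelial markers were 2520.0 to 3368 in glands, 245 to 735 in wild-type tumours and 521 to 549 in PEA3-null tumours.

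Among 11 regulators of transporter genes and transporter turnover, 1 rose and 6 fell in wild-type tumours (median -0.66), and 0 rose and 6 fell in PEA3-null tumours (median -0.80). The PEA3-null count holds Arnt, the partner of the hypoxia factors (-0.80), of which 2 other probe sets passed in the opposite direction in both tumour groups, up to 1.62 and 1.51. Mlxipl, the glucose-responsive factor ChREBP, had differences of -3.65 and -3.63 in wild-type and PEA3-null tumours, which holds for each pair of values below. Epas1, the hypoxia factor HIF-2α, had -2.96 and -2.97. Mef2c, a muscle factor known to act on the GLUT4 gene, had -2.75 and -2.63, though dimmer Mef2c probe sets that did not pass had the other sign. Txnip, which promotes the withdrawal of GLUT1 from the surface, fell by 0.96 in wild-type tumours. Its PEA3-null difference of -0.33 did not pass. Dimmer probe sets of Epas1 and Txnip differed by 0.01 and 0.09 in wild-type tumours and did not pass.

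Among 29 other amino acid transporters, 4 rose, 6 fell and 19 did not pass in wild-type tumours (median -0.13), and of 27 measured in PEA3-null tumours 5 rose, 4 fell and 18 did not pass (median -0.20). The glutamate carrier Slc1a3, of the same family as Slc1a5, differed by -3.70 and -4.03. The cationic carrier Slc7a2 had -2.81 and -2.22, and the taurine carrier Slc6a6 had -1.97 and -1.86. A dimmer Slc7a2 probe set differed by -0.32 in wild-type tumours without passing. The large neutral amino acid carrier Slc43a1 fell by 2.79 in wild-type tumours, and its PEA3-null difference of -1.55 did not pass (limma adjusted p = 0.0615). Of the carriers that rose, Slc25a13, a mitochondrial aspartate and glutamate carrier, had 1.88 and 1.85. A dimmer Slc25a13 probe set had the other sign in wild-type tumours (-0.44) without passing. The dimmer one tested in PEA3-null tumours differed by 0.89. Slc6a14, a broad amino acid carrier, rose by 3.06 in PEA3-null tumours (limma adjusted p = 0.00456). In wild-type tumours that Slc6a14 probe set (110452_i_at) rose by 3.50 (limma adjusted p = 0.000853), but the brighter one on chip C, which enters the count, differed by 0.74 without passing. Slc25a13, Slc6a14, Slc16a3, Glul and Arnt lie outside the naming rule and were chosen after their values were seen. Of 7 other monocarboxylate carriers and chaperones, 1 rose in wild-type tumours. This was Bsg (basigin), the chaperone of MCT1, which rose by 0.99 there and by 1.27 in PEA3-null tumours. Of 5 measured in PEA3-null tumours, Slc16a3, the lactate exporter MCT4, fell by 1.64 (limma adjusted p = 0.00592), and its wild-type difference of -0.77 did not pass.

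Of 5 glutamine and glutamate enzymes, 0 rose and 3 fell in wild-type tumours (median -1.39). Glul, glutamine synthetase, did not pass on its brightest probe set (0.51), but 2 others fell in wild-type tumours, down to -2.16, and 3 in PEA3-null tumours, down to -2.43. Glud1, glutamate dehydrogenase, differed by -1.39 and -1.31, and the alanine aminotransferase Gpt2 by -1.46 and -1.38. Gpt fell by 2.23 on chip C in wild-type tumours, on a probe set with shared probes, and a dimmer Gpt probe set had the other sign without passing. The 17 amino acid response genes, induced when uncharged tRNA accumulates or the endoplasmic reticulum is stressed, moved in both directions: 3 rose, 4 fell and 10 did not pass in wild-type tumours, and of 16 measured in PEA3-null tumours 4 rose, 3 fell and 9 did not pass. Trib3 rose by 3.17 in each and Cebpb by 1.99 and 1.81. Chac1 differed by -1.44 and -1.35, and Eif4ebp1, the translation inhibitor 4E-BP1, by -1.50 and -1.25. All of these Chac1 and Eif4ebp1 differences passed.

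**Figure D4:**
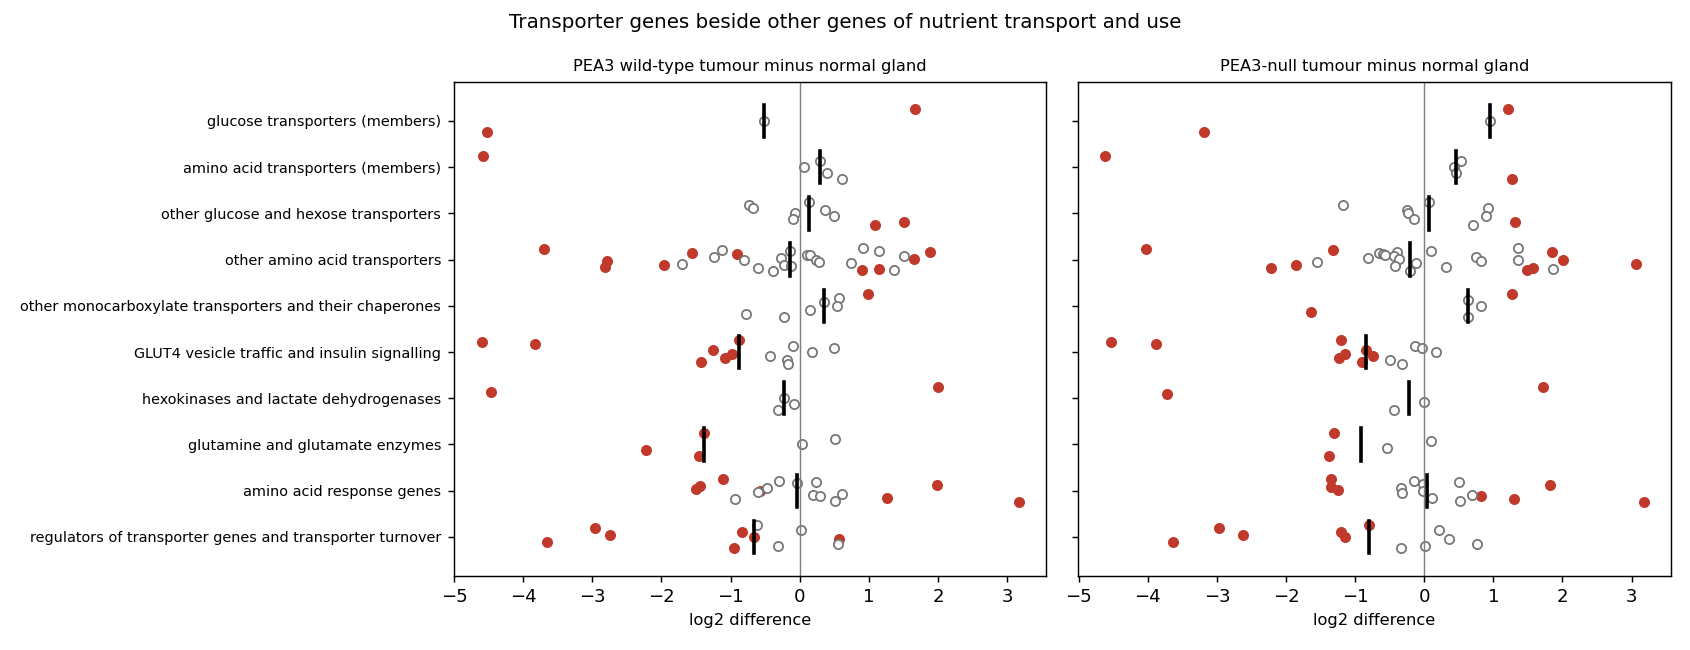
Log2 difference from normal glands of each measured gene of the transporter set and of 8 lists of related genes, in wild-type tumours (left) and PEA3-null tumours (right), with filled points where the limma adjusted p was under 0.05 and bars at list medians. In wild-type tumours the filled points of GLUT4 vesicle traffic all lie below 0, whereas those of the amino acid response lie on both sides.

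Genes with the most similar profile were sought on the same chip type, by the root mean square difference between log2 profiles over 8 arrays after each profile's own mean was removed. For Slc2a4 these were Pdlim3 (0.30), a muscle Z-disc gene, and Ogn (0.36), a matrix proteoglycan gene. For Slc1a5 they were Lum (0.38), also a matrix proteoglycan gene, and Gpam (0.38), which starts triglyceride synthesis. The closest to Slc2a1 were Pcgf2 (0.19) and Nudcd2 (0.20), and to Slc7a5 Ipo4 (0.17) and 4931406C07Rik (0.19). Slc3a2 was closest to Rrp1 (0.09) and Ap2m1 (0.09), Slc2a3 to Cfb (0.19) and Slc25a47 (0.23), Slc38a2 to Camk2g (0.16) and Zfp52 (0.16), and Slc7a1 to Galnt18 (0.11) and Irf2bpl (0.14). A low value is easier to reach for a gene that varies little, as Slc3a2 and Slc7a1 did.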

How the data were processed

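RNA of 8 samples in 3 groups was read on 22 MG-U74v2 arrays. The deposited values are linear intensities per probe set, produced by MAS5 per the submitters' processing notes. Version and settings are not given in the sources used here. The deposited 2% trimmed mean lay between 1500.3 and 1501.1 on all arrays. From the deposited instrument files, which are text settings without a measurement, the scan day, the lot of the chip and notes on washing were used.

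Signals were rescaled per array to a trimmed mean (2%) of 500 over non-control probe sets, 32 was added and log2 taken. Control probe sets (198) were left out. A test needed a signal of 150 or more on 2 or more arrays of the chip type. Gene symbols came from the platform annotation: 29131 probe sets had 1 symbol, 724 several and 6846 none, and 29044 of the first matched the RefSeq table (GRCm38.p6) by gene identifier. No 2 arrays held identical values. Precision is limited by how few arrays there are.

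The groups entered 1 limma fit per chip type (limma 3.58.1, R 4.3.3, lmFit and eBayes with a trend in the variance) with two-sided tests. Benjamini-Hochberg adjustment ran over all tested probe sets of the chips used (8820 on A, 10455 on B, 8967 on C). Folds (ratios) and intervals come from the log2 values, and SD from scaled signals. The fit was tested on simulated data. Members and lists were chosen with earlier results of these data known. Named beside the members are up to 4 genes per list past the threshold with the largest difference in wild-type tumours against glands, and the 2 nearest profiles per member. Alternatives covered scaling, added constant, filter, variance model, arrays in the fit, chip types, a fold minimum, replicate numbers as a block and each sample left out.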

Additional observations from a re-analysis of the deposited data

How the results depend on the processing

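Over 36 differences of tested transporter probe sets, 789 alternative values were computed. Of these, 764 kept direction and side of the threshold, 7 lost a call, 5 gained one and 13 changed sign, all of them between values that did not pass. Slc2a4 and Slc1a5 kept their falls against normal glands under every alternative that tested them. Including control probe sets in the scaling was chosen after seeing the data and changed no call among these. With chips A and B only, the transporter calls in wild-type tumours went from 5 to 3, since 2 Slc1a5 probe sets lie on chip C. In that setting 29.1% of all tested probe sets passed. Normal glands 1 and 2 have chip A wash records that note an aborted wash. Without both, fewer transporters and fewer listed genes passed in both tumour groups. The Slc2a1 call was lost in each, and the Slc7a5 call in PEA3-null tumours. Fewer of all tested probe sets passed as well, so the loss is not read as a property of these genes. That setting leaves 1 gland, normal gland 3, which was assumed to vary like the other groups. Its Gapdh 3′ to 5′ ratio was 5.25 to 6.08 over the chips, against 2.58 to 3.03 in normal glands 1 and 2. With 1 normal gland left out, 15% to 16.1% of all tested probe sets passed in wild-type tumours and 18% to 19.4% in PEA3-null tumours. With each sample left out in turn, the transporter calls ranged from 5 to 6 in wild-type and 3 to 5 in PEA3-null tumours, and from 0 to 1 between the genotypes, where the call was Slc1a5 without PEA3-null tumour 1. Calls among listed genes ranged from 30 to 39 in wild-type and 29 to 38 in PEA3-null tumours, and stayed at 0 between the genotypes. The Slc38a2 probe set 109429_at passed in PEA3-null tumours with a constant of 64 (limma adjusted p = 0.0491) or a minimum of 300 (0.0475). Slc7a5 crossed the threshold in wild-type tumours only in the fit without PEA3-null tumour 1, which leaves 1 PEA3-null sample. What moved it was not tested, nor were other causes.

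Replicate numbers did not pair the samples: over 16 pairs of arrays with the same number and chip type, deviations from the group means correlated between -0.11 and 0.07, and none exceeded 0.1. With the replicate block, Slc2a1 in PEA3-null tumours differed from glands by 1.22 (limma adjusted p = 0.0641), and 37 genotype calls over all probe sets became 3.

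Signs changed as follows. Wild-type minus gland, Slc38a2 94433_at (-0.018) became 0.069 with quantile normalization and lay between -0.088 and 0.053 with samples left out in turn. Slc3a2 99133_at (0.059) became -0.042 without glands 1 and 2 and lay between -0.056 and 0.20, and 129627_at (0.14) became -0.49 without glands 1 and 2 and lay between -0.64 and 0.91. Between the genotypes, with samples left out in turn, Slc7a1 110341_at lay between -0.065 and 0.26, Slc38a2 111229_at between -0.13 and 0.32 and Slc38a2 109429_at between -0.38 and 1.32.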
